A study of Mus musculus with 2 samples.

Results

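Heat shock proteins and DNAJ proteins are the main families of molecular chaperones, and their 82 genes in this RNA-seq table, out of 49492, were compared between mammary basal cells cultured with and without TNF-α. Members were taken by gene symbol alone: names that begin with Hspa, Hspb, Hspd, Hspe, Hsph or Hsp90, names that begin with Dnaja, Dnajb or Dnajc and a number, and 8 single genes (the heat shock factors Hsf1 and Hsf2, the transcription factor Xbp1, and the endoplasmic reticulum (ER) genes Herpud1, Sdf2l1, Calr, Canx and Pdia4). Pseudogenes were dropped. By place in the cell, 19 members belong to the ER and the unfolded protein response (UPR), 10 to the mitochondrion, and 53 to the cytosol, the nucleus and other sites.

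The cells were primary basal cells, the outer epithelial layer of the mammary gland that holds its stem cells, from wild-type female mice of 8 to 10 weeks. They were isolated by flow sorting and grown as colonies/organoids in 3D matrix gel for 10 days. In the TNF-α group the medium held recombinant mouse TNF-α, an inflammatory cytokine, at 10 ng/mL, and the control group received none. The series holds 1 library per group, nothing says whether animals were pooled, and no difference below could be tested against replicates. All intervals are 95% intervals that cover counting error only.

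An HSP70 protein holds an unfolded stretch of a client protein and lets it go in a cycle driven by ATP. J-domain (DNAJ) proteins bring the client and start ATP hydrolysis, HSP110 proteins exchange the nucleotide, and HSP90 proteins act later on clients that are nearly folded. Heat and misfolded protein in the cytosol switch on many of these genes through HSF1, and misfolded protein in the ER does so through the UPR, whose sensors lead to the factors ATF6, XBP1 and ATF4. The ER set serves secreted and membrane proteins, which the mammary epithelium makes in large amounts in milk.

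The libraries held 44462275 counts (control) and 53487087 counts (TNF-α), so 10 counts were worth 0.224 and 0.187 CPM (the counts of a gene scaled to a common library total). After scaling by the trimmed mean of M-values (TMM), 20771 genes whose counts in the 2 libraries added up to 10 or more were compared, 13609 of which had at least 200. Levels of different genes are given per length, as TPM (transcript abundance scaled to a common total) computed from the counts and the exon lengths of the table. The basal keratins were abundant, with Krt14 at 8276 TPM in the control and 7574 in the TNF-α library and Krt5 at 3164 and 3435. Of 6 basal genes 1, Oxtr, was more than 1.5-fold lower with TNF-α (log2 ratio -1.19), and Myh11 was at -0.52, Acta2 at -0.20 and Trp63 at 0.03. Summed over lists of markers, the level went from 14273 to 13177 TPM for 6 basal genes, from 5916 to 4898 for 8 luminal genes, from 11.9 to 8.92 for 8 leukocyte genes, from 110 to 131 for 4 fibroblast genes and from 3.33 to 3.20 for 3 endothelial genes. Of the luminal genes 5 of 8 were more than 1.5-fold lower in the TNF-α library. Among leukocyte genes Cd3e had no counts, Adgre1 had 0 in the control and 2 with TNF-α, and Cd79a had 6 and 4. The other leukocyte genes were detected at low counts: Lyz2 114 and 109, Csf1r 92 and 81, Cd68 83 and 75, Itgam 50 and 40, Ptprc 26 and 38. Of the fibroblast genes Dpt had 20 counts in the control and 622 with TNF-α (0.735 and 18.5 TPM). Col1a1, Col1a2 and Pdgfra had log2 ratios of 0.07, 0.15 and -0.02. The part of these marker differences in the chaperone values was not tested, and in bulk RNA fewer cells of a type cannot be told apart from less RNA per cell.

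The 5 members below carry, in the promoter, the ER stress element of 19 letters, CCAAT and CCACG with 9 free bases between them, which is the site that the UPR factors ATF6 and XBP1 are known to use together with NF-Y. They are shown because 3 of them, Hspa5, Hsp90b1 and Calr, are major chaperones of the ER, whose values are described after the opening counts. Letters were searched on both strands from 250 bases before to 50 after each start in the RefSeq promoters of GRCm38.p6, which covered 67 of the 82 members. The element was present in 0.119% of 32851 promoters. By gene, it was in 7.46% of the members searched, beside 0.137% of all genes searched. Capitals mark the element, which reads CGTGG first where it lies on the other strand, and each sequence runs 5′ to 3′ on the strand of its gene.
Hspa5, chr2:34772025-34772043, plus strand: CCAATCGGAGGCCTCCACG
Hsp90b1, chr10:86705510-86705691, minus strand: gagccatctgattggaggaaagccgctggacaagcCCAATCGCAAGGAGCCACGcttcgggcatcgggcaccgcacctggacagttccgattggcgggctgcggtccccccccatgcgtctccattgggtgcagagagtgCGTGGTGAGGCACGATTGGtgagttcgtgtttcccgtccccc
Calr, chr8:84847040-84847128, minus strand: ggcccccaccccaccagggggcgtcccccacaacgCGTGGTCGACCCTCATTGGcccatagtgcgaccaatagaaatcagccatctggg
Canx, chr11:50325765-50325853, minus strand: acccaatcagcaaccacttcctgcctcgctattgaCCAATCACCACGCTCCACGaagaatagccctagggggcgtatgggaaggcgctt
Dnajc3, chr14:118937792-118937880, plus strand: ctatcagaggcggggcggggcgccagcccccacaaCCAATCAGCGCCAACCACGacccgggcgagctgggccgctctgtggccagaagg
For Hspa5 only the element is printed, because it lies inside the exon that the table gives for this gene. Hsp90b1 held 2 copies, one on each strand.

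Heat shock and DNAJ genes were expressed at high levels, with similar sums in both libraries. They took 2.65% of all counts in the control and 2.84% in the TNF-α library, and their summed level was 21689 and 22651 TPM. Of the 82 members, 70 had at least 200 counts, 7 had at least 10 but fewer than 200, and 77 could be compared. Dnajb7 (2 and 0 counts) and Dnajc5b (2 and 1) were below the minimum of 10, and Dnajb8, Dnajc5g and Hspb3 had no counts, which allows up to 3 counts in each library.

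Of the 77 members compared, 0 were more than 2-fold higher in the TNF-α library and 0 were more than 2-fold lower, where 8.56% and 6.62% of all genes compared were. With at least 200 counts these shares of all genes were 4.01% and 2.87%. Past 1.5-fold, 4 members were higher (Sdf2l1, Hspa1l, Hspa12b and Dnajc22) and 2 were lower (Dnajc12 and Hspa12a), that is 5.19% and 2.60% of members beside 15.5% and 13.7% of all genes. Among genes with at least 200 counts, 2 of 70 members were past 1.5-fold higher (Sdf2l1 and Hspa1l) and 1 lower (Dnajc12), where 9.13% and 7.48% of all genes were. More members lay above 0 than below, by small amounts: the log2 ratio (TNF-α over control) was above 0 for 46 of 77, or 59.7%, beside 50.6% of all genes, and its median was 0.02 beside 0.0038 for all genes. The counting interval lay wholly above 0 for 30 members (39.0%, all genes 28.9%) and wholly below 0 for 19 (24.7%, all genes 27.8%). Even counts were in excess in both libraries, so each read end may have been counted singly, and the intervals would then be too narrow. On halved counts 26 members lay wholly above 0 (33.8%, all genes 22.7%) and 15 wholly below (19.5%, all genes 22.0%), and the intervals of Dnajc11, Dnajc14, Dnajc24, Dnajc28, Hspa12b, Hspb1, Hspbap1 and Hspbp1 came to include 0. These shares depend on depth, since the median of summed counts was 8660 for the 49 members with an interval clear of 0 and 1711 for the 28 others.

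The spread of the members was narrower than that of the transcriptome. Among members with at least 200 counts the log2 ratios from the lower to the upper quartile ran from -0.09 to 0.21, and among the 13609 genes with as many counts from -0.22 to 0.22. The range from the 5th to the 95th percentile was -0.37 to 0.49 for members and -0.74 to 0.88 for all genes. The interquartile range of all genes held 45 of the 70 members, or 64.3%, with 14 above it and 11 below. Many members are among the most abundant transcripts, and a matched set of genes was not drawn.

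**Figure D1:**
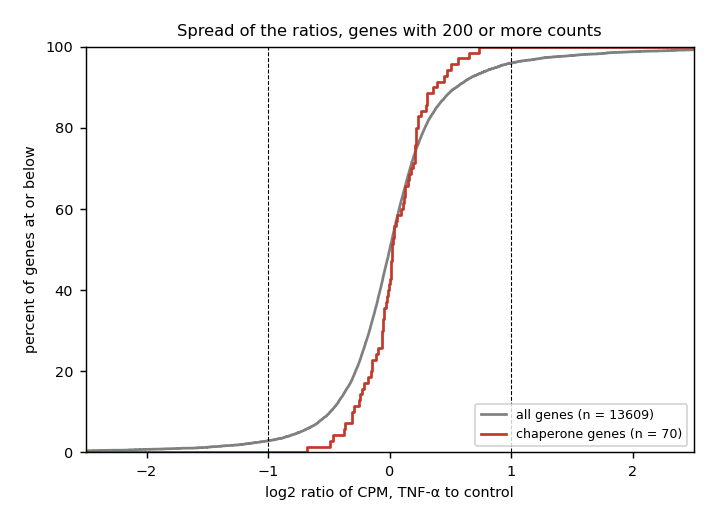
Distribution of log2 ratios (TNF-α to control, TMM-scaled) for members and for all genes with at least 200 counts in total. Members lie within -0.68 to 0.73, and their interquartile range, from -0.09 to 0.21, is narrower than that of all genes, from -0.22 to 0.22.

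Few genes made up most of the chaperone mRNA. Hsp90ab1, the constitutive cytosolic HSP90, stood at 8786 TPM in the control and 8601 with TNF-α, which is rank 5 and rank 6 among all genes of the table, and it alone gave 40.5% and 38.0% of the members' summed level. Next came the ER HSP90 Hsp90b1 (1945 and 2313 TPM), the ER lectin Calr (1860 and 2093) and the constitutive HSP70 Hspa8 (1542 and 1724). These 4 genes held 65.2% and 65.0% of the summed level. The other 6 of the 10 highest in the control were Hsp90aa1 (764 and 807 TPM), mitochondrial Hspa9 (648 and 623), Pdia4 (639 and 811), the splicing-associated Dnajc8 (566 and 633), Canx (492 and 538) and mitochondrial Hspd1 (410 and 440). ER and UPR members went from 26.5% to 29.5% of the members' summed TPM, cytosolic, nuclear and other members from 66.0% to 62.9%, and mitochondrial members from 7.54% to 7.63%.

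**Figure D2:**
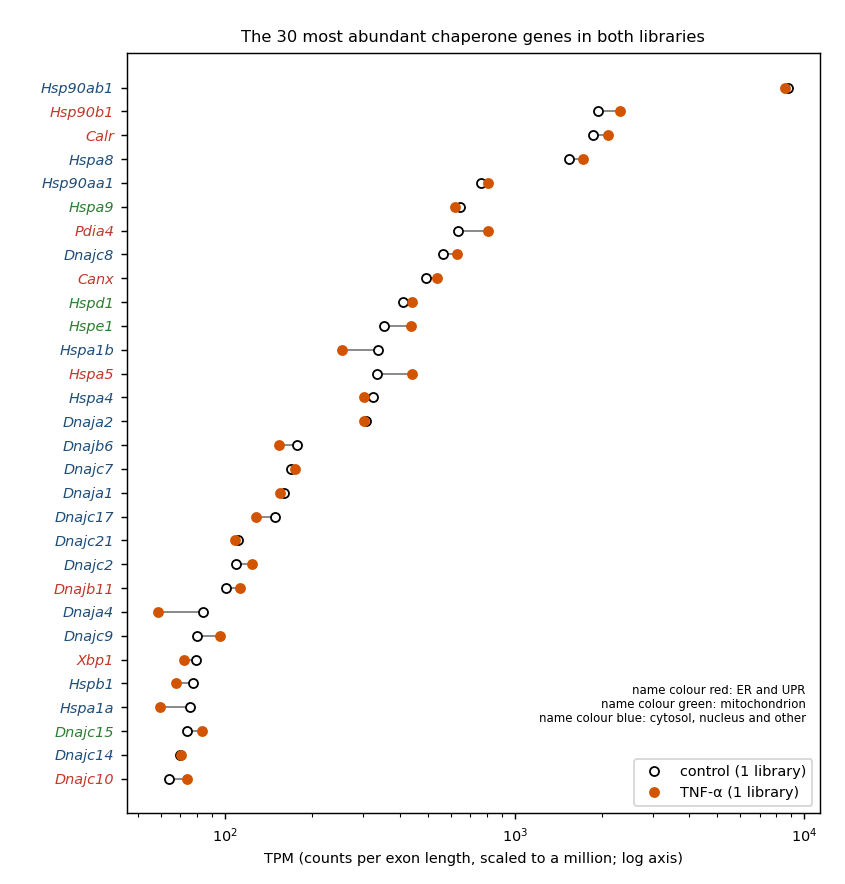
Level in TPM (log scale) in the control and the TNF-α library of the 30 members with the highest TPM in the control. Hsp90ab1 is the highest member in both libraries, at 8786 and 8601 TPM.

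The 2 role groups of ER members, the ER HSP70 and HSP90 genes and the ER lectins with the disulfide isomerase, lay above 0 in all of their 6 genes, from 0.17 to 0.51. They are put together here with these values known, and the other 13 ER and UPR members, the J-domain genes and the UPR genes, lay on both sides of 0. Hspa5 (BiP, also called GRP78) is the HSP70 of the ER and the usual readout of the UPR. It lies at chr2:34771970-34777547 and had 22358 counts in the control and 36433 with TNF-α, or 335 and 441 TPM. Hspa5 was thus 1.36-fold higher with TNF-α, a log2 ratio of 0.44 (0.42 to 0.47).

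Hsp90b1 (GRP94), the ER HSP90, had 123846 counts in the control and 182081 with TNF-α, a log2 ratio of 0.30 (0.29 to 0.31). Part of its exons, 415 bases, overlaps 1810014B01Rik on the other strand, and the small gene Gm25745 lies within it on the same strand. With the counts of 1810014B01Rik added the log2 ratio was 0.28, and with those of Gm25745 added it was also 0.28. Gm25745 had 58447 and 82164 counts over 133 overlapping bases. The same reads may have been counted for both genes, so these sums are no separate check. Hspa13, a small ER-associated HSP70, had far fewer counts, 684 and 1164, and a log2 ratio of 0.51 (0.37 to 0.65).

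Calreticulin and calnexin hold newly made glycoproteins by their sugar until they fold. Calr had 84586 counts in the control and 117687 with TNF-α, a log2 ratio of 0.22 (0.20 to 0.23). Canx, the membrane-bound partner, had 36487 and 49310, a log2 ratio of 0.17 (0.16 to 0.19). Pdia4 (ERp72), a disulfide isomerase, had 24208 and 38000, a log2 ratio of 0.39 (0.37 to 0.41). Each of these genes was higher in the TNF-α library, and Pdia4 most among the 3. Over the 6 genes together the counts were 292169 and 424675, the summed level was 5278 and 6208 TPM, and the log2 ratio of the sums was 0.28 (0.27 to 0.29).

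The J-domain proteins of the ER did not share one direction. Of 10 compared, 5 were above 0 and 5 below, with a median log2 ratio of -0.01. The 3 lumenal cofactors of BiP whose intervals lay above 0 were Dnajc10 (ERdj5, a disulfide reductase, 5041 and 7212 counts, log2 ratio 0.26), Dnajb11 (ERdj3, which binds unfolded clients, 5156 and 7131 counts, log2 ratio 0.21) and Dnajc3 (P58IPK, 3863 and 5044 counts, log2 ratio 0.13). Dnajb9 (ERdj4), which is a known XBP1 target, had 848 and 974 counts and a log2 ratio of -0.06 (-0.19 to 0.07), with an interval that includes 0. The membrane-anchored Dnajb14 had 960 and 925 counts, and its log2 ratio of -0.31 (-0.44 to -0.18) was the lowest of these genes. Dnajc1 was also lower, by an interval below 0, with 8891 and 9645 counts and a log2 ratio of -0.14, which became -0.06 after correction for GC content and length.

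The 3 UPR genes listed by name went different ways. Sdf2l1, an ER protein that works with BiP and ERdj3, was the highest of the members with at least 200 counts: it had 165 counts in the control and 330 with TNF-α, a log2 ratio of 0.73 (0.47 to 1.02). Herpud1, which serves ER-associated degradation (ERAD) at the membrane, was lower with TNF-α, with 776 and 715 counts and a log2 ratio of -0.38 (-0.53 to -0.23). Xbp1 had 4082 and 4578 counts and a log2 ratio of -0.09 (-0.16 to -0.03). XBP1 is activated by splicing of its mRNA, and counts per gene do not tell the spliced from the unspliced form.

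Among all 19 ER and UPR members 12 were above 0, and the median log2 ratio was 0.13. Their counting intervals lay above 0 for 10 and below 0 for 4. Of all genes with at least 10 counts, 50.6% were above 0, and intervals lay above 0 for 28.9% and below for 27.8%. All 19 members had at least 200 counts. Interval shares depend on depth and were not taken for all genes with as many counts, so an excess was not tested. The median of the 19 members stayed between 0.12 and 0.14 under all alternatives of scaling, prior count, filter and GC or length correction.

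**Figure D3:**
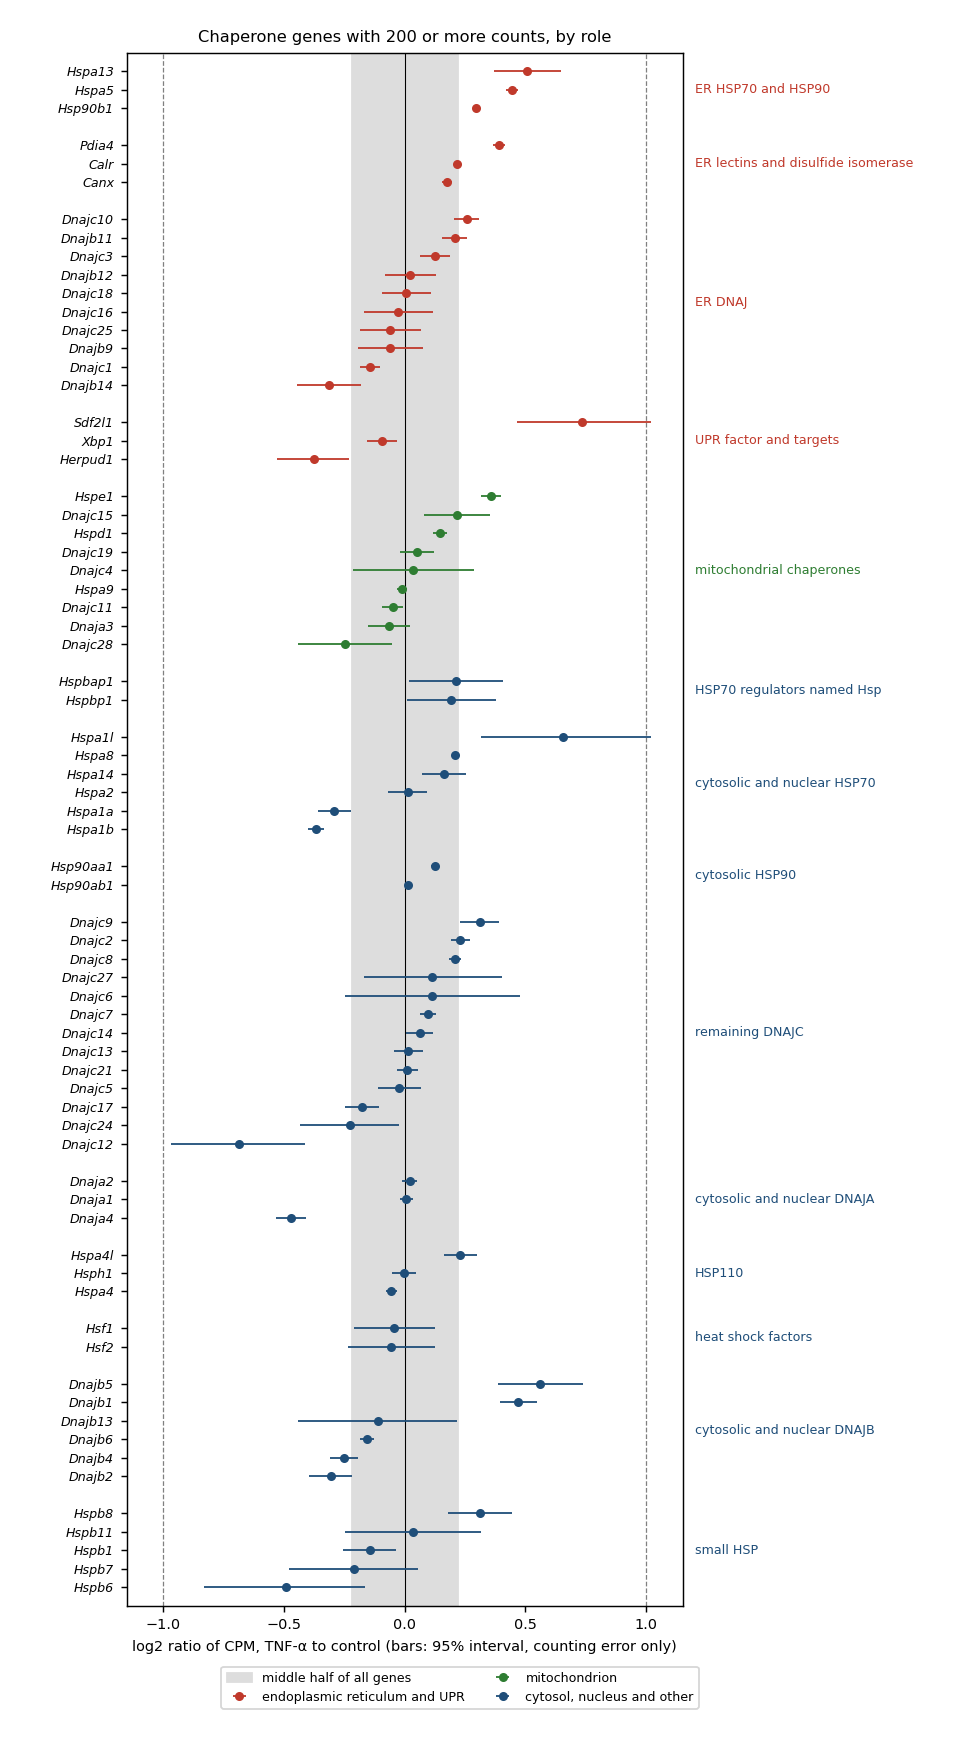
Log2 ratio (TNF-α to control, TMM-scaled) by role of the 70 members with at least 200 counts in total, with 95% intervals for counting error. The ER HSP70, HSP90, lectin and disulfide isomerase genes all lie above 0, from 0.17 to 0.51, while the ER J-domain genes lie on both sides of it.

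The promoters shown above were set beside these ratios. All 5 members with the ER stress element had a log2 ratio above 0, from 0.13 for Dnajc3 to 0.44 for Hspa5, with a median of 0.22. The element was not confined to chaperones: 37 genes of the promoter table held it, and of the 12 non-members among them with at least 200 counts 8 were above 0, with a median of 0.22 and a range from -0.87 (Acacb) to 0.65 (Zfp57). A form 1 letter shorter, which ends in CCAC, was chosen after the data were seen and was present in 0.365% of promoters. By gene, this form was in 10.4% of the members searched, beside 0.429% of all genes searched. It added Pdia4 and Herpud1, and 6 of these 7 members were above 0, with Herpud1 the exception. These promoters are printed because the pair stood on opposite sides of 0, at 0.39 and -0.38. Capitals mark the shorter element, on the reverse strand in Pdia4.
Pdia4, chr6:47813567-47813654, minus strand: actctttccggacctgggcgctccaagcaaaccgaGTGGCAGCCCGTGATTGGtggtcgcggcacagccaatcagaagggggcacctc
Herpud1, chr8:94386376-94386428, plus strand: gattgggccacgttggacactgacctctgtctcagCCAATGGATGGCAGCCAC
Near its left end the Herpud1 stretch also holds ATTGG and CCACG with 1 base between them. That arrangement was not searched for in any promoter, so it is not marked or counted here. A match of letters describes the window and does not show that a factor was bound there.

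Other genes of ER folding, which are not members, mostly lay above 0 as well. Of 21 genes of oxidative folding and other ER chaperones compared, 17 were above 0, with a median log2 ratio of 0.15, and 1 was past 1.5-fold in each direction. The highest was Ero1l, the oxidase that recharges disulfide isomerases, with 1082 and 2026 counts and a log2 ratio of 0.64 (0.54 to 0.75). The lowest was the related oxidase Ero1lb, with 117 and 87 counts and a log2 ratio of -0.67 (-1.10 to -0.27).

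Genes of ERAD, the removal of misfolded ER proteins, lay mostly below 0: 4 of 16 compared were above it, with a median of -0.16, or -0.10 where at least 1 CPM was asked for or GC content and length were corrected. Those with at least 200 counts ran from Erlec1, a lectin for misfolded glycoproteins (3053 and 2907 counts, log2 ratio -0.33), to Ube2g2, a ubiquitin-conjugating enzyme (767 and 994 counts, log2 ratio 0.11). Of the UPR sensors and their relatives 1 of 4 was above 0, with Eif2ak3 (PERK) at 0.15 and Atf6 at -0.29, and their median of -0.15 was -0.04 after the same correction. Of 7 genes downstream of PERK and ATF4, 6 were above 0 and their median was 0.17, but the counting interval lay wholly above 0 for only 2. Ddit3 (CHOP), with 1431 and 2013 counts, was at 0.23 (0.13 to 0.33). The stress-induced Sesn2, with 306 and 315, was at -0.22 (-0.45 to 0.01), an interval that includes 0. None of these 4 lists held a gene past 2-fold.

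The classical heat-inducible HSP70 genes went the other way from the ER HSP70, HSP90, lectin and disulfide isomerase genes. Hspa1b had 14928 counts in the control and 13845 with TNF-α, a log2 ratio of -0.37 (-0.40 to -0.33). Hspa1a had 3531 and 3454, a log2 ratio of -0.29 (-0.36 to -0.22). Both were lower in the TNF-α library although that library was larger. The genes are near-identical copies on chromosome 17: 47.1% of the 100-base windows of Hspa1a and 49.9% of those of Hspa1b occur in the other, so reads could not be assigned with certainty. Their summed counts gave -0.35 (-0.38 to -0.32). With a correction for GC content and length, chosen after the data were seen, Hspa1b was at -0.25 and Hspa1a at -0.15. The promoter stretches before the starts are shown because they are also the same, with capitals on the short heat shock element GAANNTTC, the pair of facing units that HSF1 binds.
Hspa1b, chr17:34959300-34959377, minus strand: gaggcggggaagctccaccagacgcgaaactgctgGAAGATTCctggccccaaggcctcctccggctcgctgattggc
Hspa1a, chr17:34972218-34972295, minus strand: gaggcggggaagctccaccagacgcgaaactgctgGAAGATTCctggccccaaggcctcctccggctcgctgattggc

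Other cytosolic HSP70 genes did not follow that pair. Hspa8 (HSC70), the abundant constitutive form, had 104753 and 144723 counts and a log2 ratio of 0.21 (0.20 to 0.22), or 0.23 with its near-copy Gm15459 added. Hspa14, a ribosome-associated HSP70, was at 0.16, and Hspa2, best known from the testis, was at 0.01. Hspa1l, which lies beside Hspa1a, had 105 and 199 counts and a log2 ratio of 0.65 (0.31 to 1.02). Its exons overlap Gm10501 on the opposite strand over 71.9% of their length, and Gm10501 had 125 and 226 counts, so the source of these reads is uncertain. The divergent HSP70 genes were low, Hspa12a with 110 and 67 counts (log2 ratio -0.95) and Hspa12b with 35 and 72 (log2 ratio 0.75).

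Cytosolic HSP90 differed little between the libraries. Hsp90ab1 had 416120 and 503553 counts, a log2 ratio of 0.02 (0.01 to 0.02). The inducible form Hsp90aa1 had 47438 and 61929, a log2 ratio of 0.12 (0.11 to 0.14), or 0.14 with the near-copy Gm12346 added. Of the HSP110 nucleotide exchange factors, Hspa4l was highest at 0.23 (2948 and 4139 counts), Hsph1 had 5972 and 7128 counts and a ratio whose interval includes 0, and Hspa4 was lowest at -0.05 (28324 and 32649 counts).

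Cytosolic J-domain genes of the DNAJB group lay on both sides of 0. Dnajb1 (HSP40), the main inducible partner of HSP70, had 2232 counts in the control and 3702 with TNF-α, a log2 ratio of 0.47 (0.39 to 0.55). Dnajb5 had 411 and 726, a log2 ratio of 0.56 (0.38 to 0.74), and was the highest of the DNAJB genes. These contrast with Dnajb2 (2102 and 2035 counts, log2 ratio -0.31), the lowest of its group, and with Dnajb4 at -0.25 and Dnajb6, which keeps polyglutamine proteins from aggregating, at -0.16. With the GC and length correction Dnajb2 was at -0.17 and Dnajb6 at -0.10. Of 7 DNAJB genes compared 3 were above 0, and the median was -0.11.

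In the DNAJA group Dnaja1 (21739 and 26147 counts) and Dnaja2 (14436 and 17534 counts), the farnesylated partners of HSC70, lay at 0.01 and 0.02 with intervals that include 0. Dnaja4 had 4765 counts in the control and 4118 with TNF-α and was lower, with a log2 ratio of -0.47 (-0.53 to -0.41). Its exons overlap Wdr61 on the other strand over 44.1% of their length, and the ratio of the summed counts of both was -0.35.

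The remaining DNAJC genes lay on both sides, with 10 of 14 above 0 and a median of 0.08. Dnajc12, a J-domain partner for aromatic amino acid hydroxylases, was the lowest of all members with at least 200 counts: it had 256 counts in the control and 190 with TNF-α, a log2 ratio of -0.68 (-0.97 to -0.41). Dnajc9, a histone chaperone, was highest of this group with at least 200 counts, with 2059 and 3058 counts and a log2 ratio of 0.31 (0.23 to 0.39). Dnajc2, which works at the ribosome, was at 0.23 and Dnajc8 at 0.21. Hspbap1 (376 and 522 counts) and the HSP70 regulator Hspbp1 (424 and 581 counts) were at 0.21 and 0.19.

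Small heat shock proteins hold unfolded clients without ATP. Hspb8, which acts with the co-chaperone BAG3, had 775 and 1151 counts and a log2 ratio of 0.31 (0.18 to 0.44). Hspb6, a muscle-enriched form, had 165 and 140 counts and a log2 ratio of -0.49 (-0.83 to -0.16). Hspb1 (HSP25), the best known of them, had 1260 and 1364 counts and a log2 ratio of -0.15 (-0.26 to -0.03, or -0.30 to 0.01 on halved counts). It shares 42.7% of its windows with Hsp25-ps1, and the summed counts gave -0.29. The sign of this group's median was not stable: it was 0.03 over 7 genes and -0.06 with a minimum of 1 CPM.

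The heat shock factors themselves had intervals that include 0. Hsf1 had 543 and 631 counts and a log2 ratio of -0.04 (-0.21 to 0.13), and Hsf2 had 474 and 546 counts and a log2 ratio of -0.06 (-0.24 to 0.12). HSF1 acts by trimer formation and phosphorylation, which mRNA counts do not show. Of 14 members listed as HSF1 targets, 9 were above 0 and the median was 0.07, with Dnajb1 the highest at 0.47 and Hspa1b the lowest at -0.37.

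In the mitochondrion the chaperonin pair was higher and the HSP70 was not. Hspe1 (HSP10) had 8227 counts in the control and 12626 with TNF-α, a log2 ratio of 0.36 (0.32 to 0.40), and Hspd1 (HSP60), with which it forms the folding chamber, had 17128 and 22719 and a log2 ratio of 0.15 (0.12 to 0.18). Their exons overlap by 112 bases on opposite strands, and the summed counts of both gave 0.22. With the GC and length correction Hspe1 was at 0.27. Mitochondrial HSP70, Hspa9 (mortalin), had 40269 and 47848 counts and a log2 ratio of -0.01 (-0.03 to 0.01). Of 10 mitochondrial members 5 were above 0, with a median of 0.01, and Dnajc28 was lowest at -0.25 (436 and 440 counts).

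Hspe1 and Hspd1 lie head to head and share 1 promoter region, which held the 3-unit heat shock element (GAA, TTC and GAA, each 2 free bases apart), found in 0.603% of all promoters. The same bases, chr1:55088059-55088076, are printed from the side of each gene, with all letters in capitals because 2 overlapping matches cover them.
Hspd1, minus strand: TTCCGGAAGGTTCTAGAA
Hspe1, plus strand: TTCTAGAACCTTCCGGAA
Dnajb6 and Hsph1 also held the 3-unit element, and 2 of these 4 members were above 0. The 3-unit element was thus in 5.97% of the members searched, beside 0.662% of all genes searched. The 2-unit element GAANNTTC, which is part of the 3-unit one, was in 7.86% of promoters. By gene, it was in 14 members, 20.9% of those searched, beside 9.04% of all genes searched. Of the 12 of these 14 that were compared, 5 were above 0, with a median of -0.07. Members with either form thus lay on both sides of 0.

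Genes that work with the chaperones but are not members were taken as lists. Of 24 cochaperones of HSP70 and HSP90, 13 were above 0 and the median was 0.02. The highest was Fkbp5, an HSP90-bound immunophilin and a known glucocorticoid target, with 332 and 755 counts and a log2 ratio of 0.92 (0.74 to 1.12), and the lowest was Unc45a, a myosin chaperone, at -0.46 (6389 and 5551 counts).

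The TRiC chaperonin folds actin and tubulin, and all 8 of its subunits were above 0, from Tcp1 at 0.01 to Cct5 at 0.26, with a median of 0.12. Of the 6 prefoldin subunits, which deliver clients to TRiC, 5 were above 0 and the median was 0.28, with Pfdn4 highest at 0.71 (1042 and 2040 counts) and Pfdn5 lowest at -0.14 (4891 and 5308 counts). Of 12 genes of mitochondrial protein import and quality control 5 were above 0, with a median of -0.03. Among 7 other stress proteins, 4 were above 0: Hyou1, the ER HSP110 whose symbol kept it out of the members, was at 0.26 (5342 and 7643 counts), close to the ER chaperones above, and Cryab, an alpha-crystallin, was at -0.32 (1937 and 1856 counts). The 2 genes of that list more than 2-fold lower with TNF-α had few counts, Cryaa with 11 and 0 and Hsf4 with 40 and 16.

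**Figure D4:**
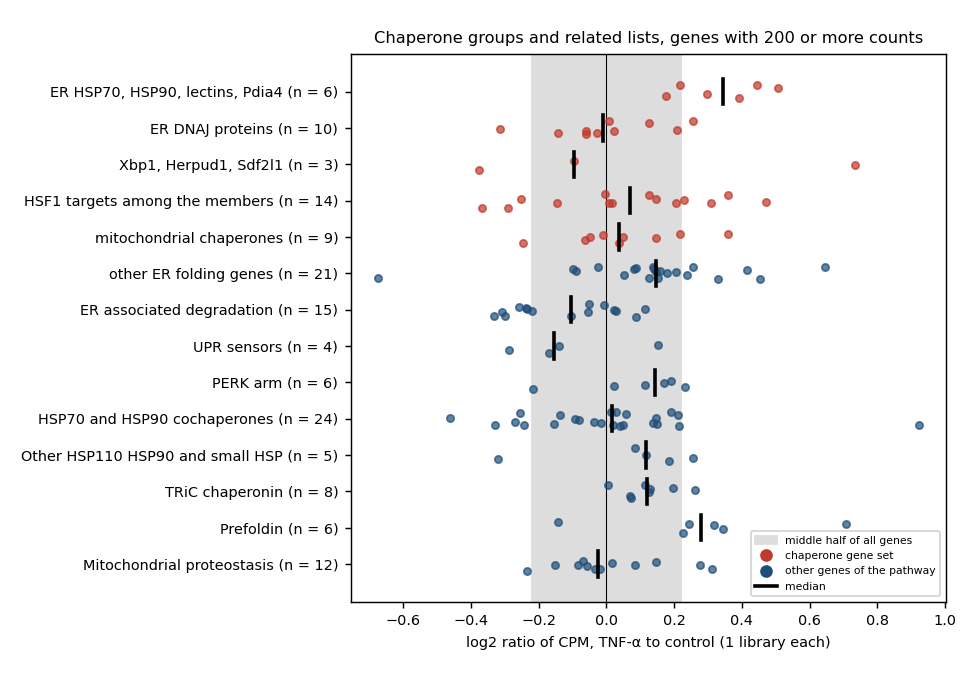
Median and single log2 ratios (TNF-α to control, TMM-scaled) of groups of members and of pathway lists of other genes. Only genes with at least 200 counts in total are drawn. The ER HSP70, HSP90, lectin and disulfide isomerase genes, drawn together, have a median of 0.34. Genes of ER-associated degradation with as many counts have a median of -0.10.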

How the data were processed

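RNA-seq of 2 samples was used, 1 per group. The values are raw counts of reads for each gene, deposited by the authors in 1 table beside exon positions and lengths. The labels name GRCm38 (mm10) and an mRNA library kit. The aligner, counter, annotation, strand setting and read filters are not given in the sources used here. The series title speaks of a microarray, but the series type and the table are sequencing. Of 47240 gene names shared with the GRCm38 annotation 90.9% had the same span. Even counts were in excess (2172 genes with 2 counts and 618 with 1 in the control), so read ends may have been counted singly. Columns of per-sample values not mapped to a sample numbered 0.

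Counts were scaled by TMM (edgeR 4.0.16, R 4.3.3), with a prior count of 2 in log2 CPM and a minimum of 10 summed counts. Without replicates no test was run, and "called" means past 2-fold. Intervals are exact Clopper-Pearson intervals of the TNF-α share of a gene's counts. Named with full values were Hspa5 and the 8 single genes, the 10 highest by TPM in the control, the highest and lowest of each group or list with at least 200 counts, and members past 1.5-fold with at least 200 counts. Others named were chosen after their values were seen. The members and lists were chosen with earlier results of these data known. Python 3.11.15, numpy 2.4.6, pandas 2.3.3 and scipy 1.17.1 were used. Promoters came from RefSeq (GRCm38.p6).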

Additional observations from a re-analysis of the deposited data

How the results depend on the processing

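No paired analysis was possible because each group has 1 library. Total counts, DESeq2 (1.42.0) size factors, upper quartile scaling, prior counts of 0.5 and 5, other filters, a fold of 1.5 and halved counts were tried, and a lowess correction for GC content and length (span 0.3, GC known for 77 of 77 members and 20075 of 20771 genes) was added after the data were seen. Group medians near 0 changed sign: the DNAJA median, 0.0066, was -0.000249 with total counts, -0.00236 with upper quartile and -0.012 with lowess. The small heat shock protein median, 0.03, was -0.056 with at least 1 CPM and -0.022 with lowess. With lowess the ER J-domain median became 0.043, the HSP110 median 0.046, the mitochondrial proteostasis median 0.012, Dnajc11 0.055 and Dnajc15 -0.000828. Dnaja2 went from 0.02 to -0.012 and Hsph1 from -0.0045 to 0.046, and the counting intervals of both included 0 before the correction. The other genes that moved kept their sign, among them Hspe1 to 0.27, Pdia4 to 0.36, Dnajc8 to 0.165, Unc45a to -0.29 and, away from 0, Hyou1 to 0.34. A fold of 1.5 gave 4 members higher and 2 lower, and no filter gave 1 member more than 2-fold lower, Dnajb7 with 2 and 0 counts. The cause of the sign changes was not tested. Medians of all genes stayed within 0.03 of 0 under every scaling. With 1 library per group, culture and treatment cannot be told apart, and depth limits genes under 200 counts.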
